A study of Mus musculus with 6 samples.

Results

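Branched-chain amino acid and lysine breakdown in mouse liver was followed through 10 genes: Bckdha, Bckdhb, Dbt, Bckdk, Ivd, Mccc1, Mccc2, Hibch, Hibadh and Aass. They were taken by name from a table of 23631 genes, each name matched 1 row, and all 10 passed the filter on low counts. The data are RNA-seq read counts from livers of male C57BL/6J mice, an inbred laboratory strain, with 3 libraries labelled re-fed (called refed here) and 3 from mice fasted for 48 h. The labels give no age, no other allele and no agent, and the treatment protocol speaks of normal feeding where the sample labels say re-fed, so whether the first group had fasted before feeding is not settled. Each library is whole liver, which holds several cell types, and the labels do not say how samples were drawn from animals.

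Leucine, isoleucine and valine are first transaminated to branched-chain ketoacids, a step for which liver is known to have little enzyme, so that liver mainly oxidises ketoacids made elsewhere. The branched-chain ketoacid dehydrogenase (BCKDH) complex then commits all of them to oxidation in mitochondria; it is switched off when the kinase Bckdk phosphorylates its alpha subunit and switched on again by the phosphatase Ppm1k. Beyond the complex each amino acid has its own arm, and lysine is degraded in liver mitochondria by a separate route that starts with the bifunctional enzyme Aass. All 10 genes carry a mitochondrial term in the cellular component annotation of the deposited table, against 10.2% of the genes tested. The genes were chosen by name for these mitochondrial routes, so their share reflects that choice.

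Library totals ran from 29574528 to 36026753 reads, and the members had from 159 to 88288 reads per library. Levels are given as CPM, the count of a gene scaled to a common library size with TMM factors. Fasted replicate 3 stood apart from the other fasted libraries: compared gene by gene, its counts gave a chi-square per gene of 214 against replicate 1 and 192 against replicate 2, where replicates 1 and 2 gave 32.6 and pairs of refed libraries 24.5 to 44.5. The summed level of the 3 neutrophil markers was 120.4 CPM in fasted replicate 3, 0.63 and 1.52 CPM in the other fasted libraries and from 0.0844 to 0.41 CPM in refed ones, with Ly6g at 1 read in fasted replicate 3 and at 0 elsewhere. The 6 hepatocyte markers summed to between 84573 and 101176 CPM in refed and between 115530 and 133605 CPM in fasted libraries. Of them 4 (Apoa1, Cps1, Tat and Hnf4a) were called higher and 1 (Ttr) lower. Most of the sum was Alb, which was not called (66733 to 83860 CPM in refed and 71022 to 87289 CPM in fasted libraries). Cps1 had 4176 to 5265 CPM in refed and 15134 to 25763 CPM in fasted libraries. Kupffer cell markers summed to 55.4 to 74.0 CPM in refed and 17.1 to 80.8 CPM in fasted libraries, and endothelial ones to 44.9 to 81.3 and 59.7 to 101 CPM, with 2 of 5 called higher. Stellate cell markers summed to 94.6 to 110.8 CPM in refed and 179.8 to 260.4 CPM in fasted libraries, most of it Dcn, which was called higher (63.2 to 72.7 against 155 to 222 CPM), while Lrat was called lower (8.70 to 12.7 against 2.40 to 4.81 CPM) and Reln, Col1a1 and Des were not called. Cholangiocyte markers summed to 4.40 to 5.61 CPM in refed and 6.33 to 8.67 CPM in fasted libraries, with 2 of 4 called higher, and lymphocyte markers to 2.49 to 3.52 and 1.26 to 3.44 CPM. Adipocyte and skeletal muscle markers reached at most 0.563 and 0.217 CPM in any library. Of the acinar pancreas markers, Cela1 had 9.995 to 13.5 CPM in refed and 2.44 to 3.45 CPM in fasted libraries, and Cpa1 had 1 read in all. The part of these cell types in the values below was not tested.

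The 250 bases before the annotated start of 4 members are shown. Aass rose most, Bckdk fell most, and Bckdha and Bckdhb encode the subunits of the enzyme that Bckdk inhibits. The window of Hibadh, whose change was about as large as that of Bckdha, is not shown. The windows shown are RefSeq sequences of build GRCm38.p6, read 5′ to 3′ on the gene's own strand, from chr6:23132987-23133236 on the minus strand, chr7:127903823-127904072 on the plus strand, chr7:25658762-25659011 on the minus strand and chr9:83924887-83925136 on the plus strand. Capitals mark letters found by a search on both strands for TGACGTCA (the cyclic AMP response element), AGGTCA (the core of nuclear receptor sites), TGTTCT (the core of glucocorticoid receptor sites), CCAAT (the CCAAT box), GGGCGG (the GC box), TGTTTAC (a forkhead site) and CACGTG (the E box); no motif here contains another.
Aass: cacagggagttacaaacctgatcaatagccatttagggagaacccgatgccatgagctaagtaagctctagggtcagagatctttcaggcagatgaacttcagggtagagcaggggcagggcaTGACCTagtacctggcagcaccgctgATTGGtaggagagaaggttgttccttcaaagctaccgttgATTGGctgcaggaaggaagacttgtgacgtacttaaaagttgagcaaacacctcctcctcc
Bckdk: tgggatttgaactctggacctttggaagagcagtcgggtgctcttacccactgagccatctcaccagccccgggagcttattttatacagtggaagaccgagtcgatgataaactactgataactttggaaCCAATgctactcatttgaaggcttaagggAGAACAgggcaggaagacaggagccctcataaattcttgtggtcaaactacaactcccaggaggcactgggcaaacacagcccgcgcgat
Bckdha: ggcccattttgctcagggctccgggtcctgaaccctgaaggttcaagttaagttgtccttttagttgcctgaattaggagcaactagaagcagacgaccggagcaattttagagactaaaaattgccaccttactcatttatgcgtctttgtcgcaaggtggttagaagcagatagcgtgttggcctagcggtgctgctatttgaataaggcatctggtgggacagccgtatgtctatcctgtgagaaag
Bckdhb: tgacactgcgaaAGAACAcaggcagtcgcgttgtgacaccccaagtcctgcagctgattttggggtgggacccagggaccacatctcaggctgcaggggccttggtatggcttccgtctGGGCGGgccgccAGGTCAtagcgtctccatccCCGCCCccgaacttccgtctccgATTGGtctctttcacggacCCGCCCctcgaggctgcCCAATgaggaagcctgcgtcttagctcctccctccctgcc
Bckdhb has a second annotated start in the same reference, whose window is not shown. The Aass window held the letters AGGTCA once, 127 bases before the start on the opposite strand, and CCAAT at 101 and 61 bases before it, also on the opposite strand. In the Bckdk window TGTTCT lay 90 bases before the start on the opposite strand and CCAAT 119 bases before it. The Bckdhb window held AGGTCA 119 bases before the start, TGTTCT 238 bases before it on the opposite strand, CCAAT in 2 places and GGGCGG in 3. None of the letters searched was in the Bckdha window. Of the 9 members with a window, CCAAT was found in 7 and in 33.8% of all 32851 windows, GGGCGG in 4 against 32.7%, AGGTCA in 2 against 14.0%, and TGTTCT in 2 against 16.1%. TGTTTAC was found in Hibadh alone against 3.17% of windows, CACGTG in Mccc2 alone against 6.02%, and TGACGTCA in 0 against 1.55%. Such matches describe the letters in these windows and no binding was measured.

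Across the 10 genes, fasting went with a steep rise of the first lysine enzyme, moderate rises of the BCKDH alpha and beta subunits, and falls of the BCKDH kinase and of a late valine enzyme. The quasi-likelihood test of edgeR, with p-values adjusted after Benjamini and Hochberg over all genes tested, called 3 members higher in fasted livers (Aass, Bckdha and Bckdhb) and 2 lower (Bckdk and Hibadh) at an adjusted p under 0.05, where 29.2% of all 13248 genes tested were called higher and 30.2% lower. The share of members called, 5 of 10, was therefore near that of all genes, 59.4%. The groups of libraries did not overlap in 6 members, against 67.2% of genes tested. The median log2 fold change of the members was -0.04 and that of all tested genes -0.00039, and the median absolute log2 fold change was 0.42 in the members and 0.66 in all tested genes. In whole tissue, fewer cells of a type and less RNA per cell cannot be told apart, which holds for every value below.

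**Figure D1:**
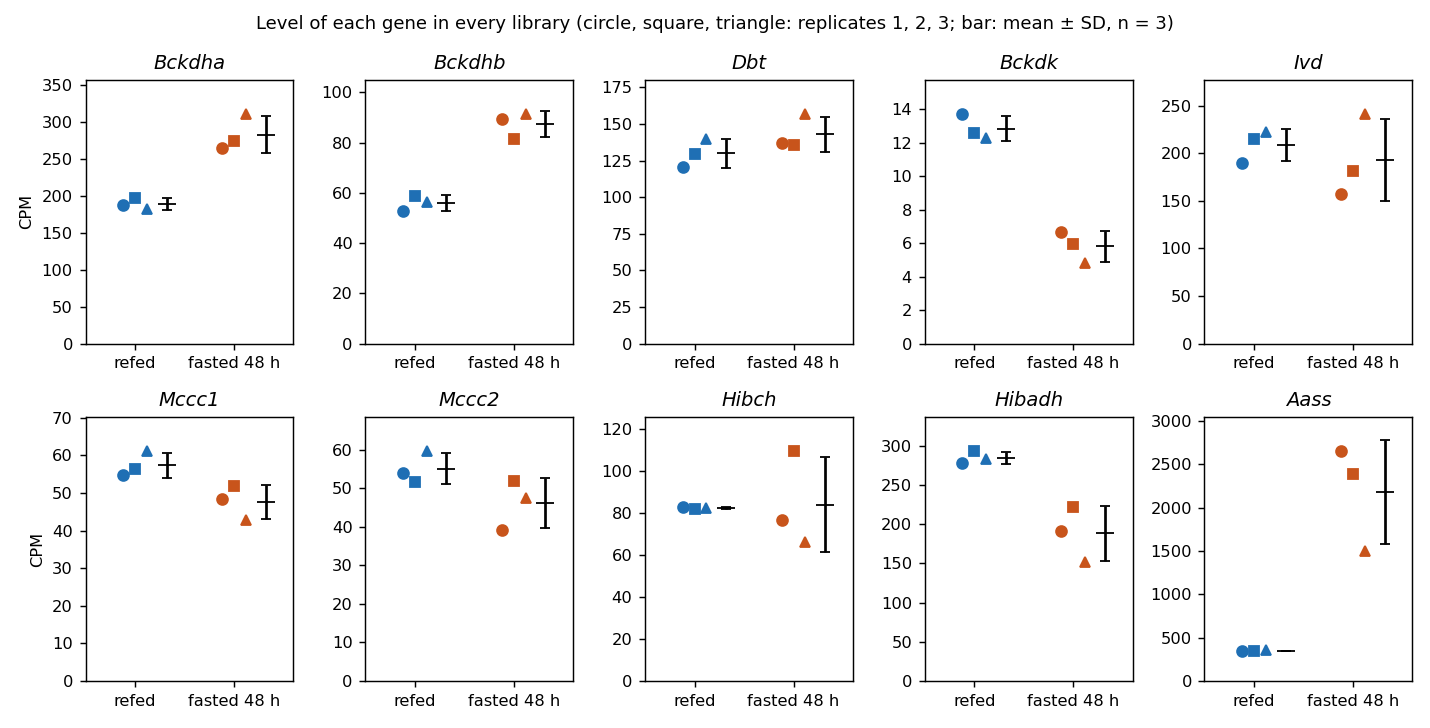
Levels (CPM, linear axis from 0) of the 10 genes in each of the 3 refed and 3 fasted libraries, with the mean and SD of each group beside the points. Aass sits between 342 and 351 CPM in refed and between 1504 and 2649 CPM in fasted libraries, while the points of Dbt, Ivd, Mccc2 and Hibch overlap between the groups.

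Aass, the bifunctional aminoadipic semialdehyde synthase that joins lysine to 2-oxoglutarate and splits the product saccharopine, showed the steepest change of the 10 genes. It had 344, 342 and 351 CPM in refed replicates 1, 2 and 3, and 2649, 2390.3 and 1504 CPM in fasted replicates 1, 2 and 3. All fasted libraries lay far above all refed ones, and fasted replicate 3 was the lowest of them. The mean rose from 346 ± 4.73 to 2181 ± 600.4 CPM (SD, n = 3), a 6.31-fold rise (log2 fold change 2.66 ± 0.23 SE, adjusted p = 4.6e-05 by edgeR). Its log2 fold change was number 302 from the highest of all genes tested. Without fasted replicate 3 the log2 fold change was 2.87. Aass (ENSMUSG00000029695) lies on chromosome 6 from 23022173 to 23082986 (mm9), where the deposited table lists no overlapping gene; reads are counted over whole genes, so the values of this and the other members belong to no single exon or UTR.

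Bckdha and Bckdhb, which encode the alpha and beta subunits of the decarboxylase at the head of the BCKDH complex, rose together. Bckdha had 187, 197 and 182 CPM in refed replicates 1, 2 and 3 and 264, 274 and 310.02 CPM in the fasted ones. Bckdhb had 52.7, 58.8 and 56.2 CPM in refed and 89.4, 81.6 and 91.3 CPM in fasted replicates. For neither gene did the groups overlap, and fasted replicate 3 was the highest library for both. Bckdha rose 1.497-fold (log2 fold change 0.58 ± 0.12 SE, adjusted p = 0.00391 by edgeR), from 189 ± 7.56 to 282 ± 24.4 CPM (SD, n = 3). Bckdhb rose 1.56-fold (log2 fold change 0.65 ± 0.10 SE, adjusted p = 0.00097 by edgeR), from 55.9 ± 3.04 to 87.4 ± 5.16 CPM (SD, n = 3). Both changes were no larger than the median absolute change of all tested genes. Bckdha (ENSMUSG00000060376) lies on chromosome 7 from 26414871 to 26443780 and Bckdhb (ENSMUSG00000032263) on chromosome 9 from 83818757 to 84017846 (mm9), where it overlaps a U6 small nuclear RNA gene with at most 8 reads in a library.

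Dbt, the dihydrolipoyl transacylase that forms the core of the complex, did not pass the test. It had 120.3, 129.6 and 139.7 CPM in refed and 137, 135 and 157 CPM in fasted replicates, so the groups overlapped (log2 fold change 0.14 ± 0.12 SE, adjusted p = 0.347 by edgeR). Its sign turned when libraries were scaled by their totals instead of TMM factors, to a log2 fold change of -0.07. Dbt (ENSMUSG00000000340) lies on chromosome 3 from 116215988 to 116252894 (mm9) and overlaps the pseudogene Gm4596, which had at most 7 reads in a library.

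Bckdk, the kinase that inactivates the complex, fell, while Bckdha, the subunit it phosphorylates, rose. It had 13.7, 12.6 and 12.3 CPM in refed replicates 1, 2 and 3, and 6.66, 5.96 and 4.84 CPM in the fasted ones. Every fasted library lay below every refed one. The mean went from 12.9 ± 0.764 to 5.82 ± 0.917 CPM (SD, n = 3), a 2.21-fold fall (log2 fold change -1.14 ± 0.15 SE, adjusted p = 0.000398 by edgeR). With 159 to 447 reads per library it was the least read of the 10 genes. Bckdk (ENSMUSG00000030802) lies on chromosome 7 from 135047596 to 135053178 (mm9) with no overlapping gene in the table. Ppm1k, the phosphatase that reverses the kinase, had 35.7, 30.2 and 54.3 CPM in refed and 41.1, 37.6 and 55.0 CPM in fasted replicates and did not pass (log2 fold change 0.15 ± 0.24 SE, adjusted p = 0.605 by edgeR).

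Ratios of counts within a library do not depend on how libraries are scaled, and 5 were compared. The ratio of Bckdk to Ppm1k, set to 1 at the refed geometric mean, was 1.16, 1.26 and 0.683 in refed replicates 1, 2 and 3 and 0.491, 0.481 and 0.267 in fasted ones. The groups did not overlap, and the fasted mean was 0.398 of the refed one (log2 difference -1.33, exact two-sided permutation p = 0.1). Against the mean of Bckdha, Bckdhb and Dbt, Bckdk stood at 1.12, 0.949 and 0.941 in refed and 0.39, 0.357 and 0.255 in fasted replicates, a log2 difference of -1.61 (exact permutation p = 0.1). This was the largest of the 5 log2 differences. Dbt against Bckdha and Bckdhb was 0.959, 0.953 and 1.09 in refed and 0.706, 0.717 and 0.738 in fasted replicates, without overlap (log2 difference -0.47, exact permutation p = 0.1). Bckdha to Bckdhb, the subunits of the decarboxylase, differed by a log2 value of only -0.07 (exact permutation p = 0.6), with overlapping groups. Mccc1 to Mccc2 differed by -0.0086 (exact permutation p = 0.9), again with overlap. With 3 libraries against 3 the smallest p this test allows is 0.1, so none of these ratios can pass 0.05. Adjusted over the 5 ratios, the p-value was 0.167 for each of the 3 without overlap, 0.75 for Bckdha to Bckdhb and 0.9 for Mccc1 to Mccc2.

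**Figure D2:**
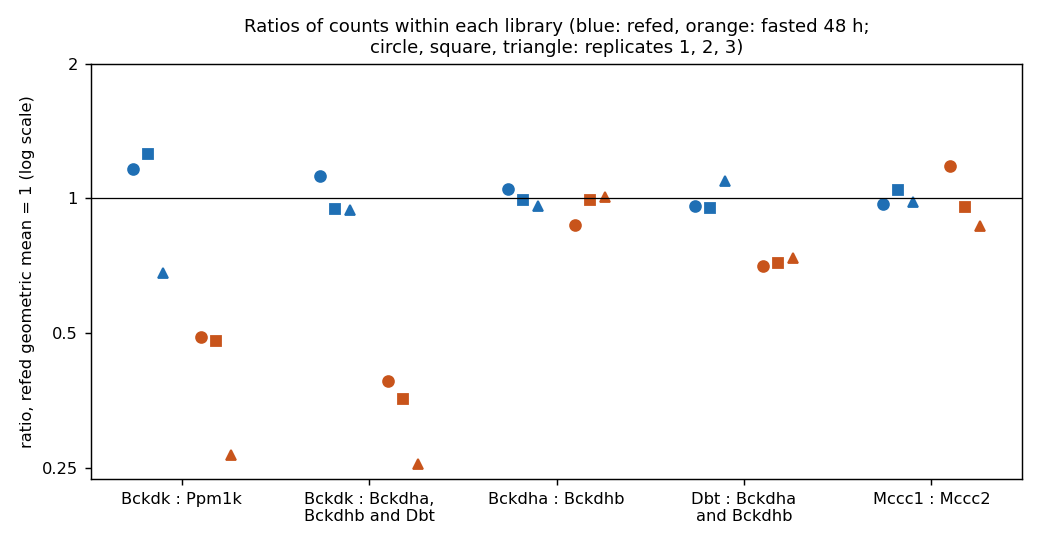
Ratio of counts within each library for 5 pairs of genes or gene groups (log axis, refed geometric mean set to 1), with blue points for refed and orange points for fasted libraries. The fasted libraries sit below the refed ones for the ratios with Bckdk on top and for Dbt against Bckdha and Bckdhb, and overlap with them for Bckdha to Bckdhb and Mccc1 to Mccc2.

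In the leucine arm no member passed the test. Ivd, the isovaleryl-CoA dehydrogenase that acts next on the leucine skeleton, had 189.8, 215 and 222 CPM in refed replicates 1, 2 and 3 and 157, 181 and 241 CPM in fasted ones. The groups overlapped, with fasted replicate 3 the highest of all 6 libraries and the other fasted libraries the lowest. Its log2 fold change was -0.11 (SE 0.17, edgeR adjusted p = 0.597); without fasted replicate 3 it was -0.30 and passed (edgeR adjusted p = 0.0451, from 0.0451 to 0.929 over the alternatives), and without fasted replicate 1 it turned to 0.02. Ivd (ENSMUSG00000027332) lies on chromosome 2 from 118687690 to 118708645 (mm9).

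Mccc1 and Mccc2 encode the biotin-carrying and the transferase subunit of methylcrotonyl-CoA carboxylase, the leucine enzyme after Ivd. Mccc1 had 54.7, 56.4 and 61.0 CPM in refed and 48.3, 51.8 and 42.9 CPM in fasted replicates. Its groups did not overlap, yet it did not pass (log2 fold change -0.27 ± 0.11 SE, adjusted p = 0.0653 by edgeR, from 0.00385 to 0.16 over the alternatives), while the authors' deposited table gives it an adjusted p of 0.0402. Mccc2 had 54.0, 51.8 and 59.6 CPM in refed and 39.2, 51.9 and 47.6 CPM in fasted replicates, and overlapped by a narrow margin between refed replicate 2 and fasted replicate 2 (log2 fold change -0.25 ± 0.13 SE, adjusted p = 0.12 by edgeR). Mccc1 (ENSMUSG00000027709) lies on chromosome 3 from 35858234 to 35899600 and overlaps the antisense gene A330050B17Rik, which had at most 15 reads in a library. Mccc2 (ENSMUSG00000021646) lies on chromosome 13 from 100718488 to 100785594 (mm9).

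The valine arm has a pair of members that act in consecutive steps, of which Hibadh passed the test and Hibch did not. Hibch, which removes CoA from hydroxyisobutyryl-CoA, had 83.1, 81.8 and 82.4 CPM in refed and 76.6, 109 and 66.4 CPM in fasted replicates. The refed libraries were nearly equal (82.4 ± 0.617 CPM, SD, n = 3) and the fasted ones spread on either side of them (84.1 ± 22.5 CPM, SD, n = 3), with a log2 fold change of 0.03 (SE 0.18, edgeR adjusted p = 0.9) whose sign changed with several settings. Hibadh, the dehydrogenase that oxidises the hydroxyisobutyrate so formed, had 278, 293 and 283 CPM in refed and 191, 223 and 152 CPM in fasted replicates. Its groups did not overlap, and fasted replicate 3 was the lowest. Hibadh fell 1.51-fold (log2 fold change -0.60 ± 0.16 SE, adjusted p = 0.0114 by edgeR), from 285 ± 7.48 to 188 ± 35.4 CPM (SD, n = 3). The difference between the changes of Hibch and Hibadh was not tested. Hibch (ENSMUSG00000041426) lies on chromosome 1 from 52901857 to 52977830 and Hibadh (ENSMUSG00000029776) on chromosome 6 from 52496222 to 52590383 (mm9); the small nucleolar RNA SNORA32 inside Hibadh had 0 reads.

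Lists of the other genes of these routes held 37 genes, of which 36 could be tested. Of these, 7 rose, 12 fell and 17 did not pass, with a median log2 fold change of -0.03, so that 19 of 36 were called against 59.4% of all genes tested. Those named beyond the rule were chosen after their values were seen. Bcat2, a transaminase, had 13.0 to 17.2 CPM in refed and 15.9 to 17.9 CPM in fasted libraries and did not pass, with an overlapping lincRNA gene, 0610005C13Rik, at up to 6754 reads. Bcat1 had 0 reads in every library, which allows at most between 0.0844 and 0.0946 CPM per library by counting error. Dld, the dehydrogenase subunit shared by several ketoacid dehydrogenases, did not pass (log2 fold change 0.20 ± 0.11 SE, adjusted p = 0.148 by edgeR). Its groups did not overlap, at 149.8 to 159.1 CPM in refed and 171.4 to 183.2 CPM in fasted libraries. The authors' deposited adjusted p for Dld was 0.00333, and with library totals its log2 fold change was -0.02. In the leucine list edgeR and DESeq2 each called 0 of 4 genes, and 1, Mccc1, had an unadjusted edgeR p under 0.05. The other leucine gene, Auh, the hydratase of the arm, had a log2 fold change of 0.13.

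In the isoleucine arm 1 of 4 genes rose, 2 fell and 1 did not pass. Among all genes tested 29.2% were called higher and 30.2% lower. Hsd17b10, the hydroxyacyl-CoA dehydrogenase of this arm, had 101, 142 and 146 CPM in refed and 598, 723 and 414 CPM in fasted replicates. All fasted libraries were far above the refed ones, a 4.45-fold rise (log2 fold change 2.15 ± 0.24 SE, adjusted p = 0.000162 by edgeR). Acadsb, the acyl-CoA dehydrogenase at the head of the same arm, had 151, 164 and 181 CPM in refed and 74.7, 81.6 and 62.8 CPM in fasted replicates. It fell 2.26-fold without overlap (log2 fold change -1.18 ± 0.14 SE, adjusted p = 0.000199 by edgeR); its span overlaps Fgfr2, which had at most 922 reads in a library. Acat1, the thiolase that ends the arm and also serves ketone body metabolism, fell (log2 fold change -0.74, edgeR adjusted p = 0.0249), and its adjusted p ran from 0.00579 to 0.0763 over the alternatives, the call being lost without refed replicate 2, refed replicate 3 or fasted replicate 1.

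Of the 6 valine genes Hibadh was called lower, and 0 were called higher by edgeR, by DESeq2 or at an unadjusted p under 0.05. By edgeR 29.2% of all genes tested were called higher and 30.2% lower. Acad8, the isobutyryl-CoA dehydrogenase, stood at a log2 fold change of -0.37 (edgeR adjusted p = 0.0723), or -0.56 without fasted replicate 3 (edgeR adjusted p = 0.00155). Valine and isoleucine carbon passes through propionyl-CoA to methylmalonyl-CoA, and 3 of the 8 genes of that branch fell and 5 did not pass, where 30.2% of all genes tested were called lower. In the same branch 0 genes rose by edgeR, by DESeq2 or at an unadjusted p under 0.05, against 29.2% of all genes tested, and without fasted replicate 3 edgeR called 1 higher, Mmadhc (log2 fold change 0.87, adjusted p = 6.13e-05). Scaled by library totals, 5 of the 8 were called lower, where 5074 of all 13248 genes tested were called lower and 2873 higher. Mmab, the adenosyltransferase that makes the cobalamin cofactor of methylmalonyl-CoA mutase, had 29.4, 29.9 and 31.6 CPM in refed and 2.04, 2.67 and 4.11 CPM in fasted replicates. No library of one group came near the other, a 10.3-fold fall (log2 fold change -3.36 ± 0.24 SE, adjusted p = 2.2e-05 by edgeR). Mmaa, which helps load that cofactor onto the mutase, had 27.9, 25.6 and 24.4 CPM in refed and 8.04, 10.6 and 6.76 CPM in fasted replicates, a 3.08-fold fall (log2 fold change -1.62 ± 0.17 SE, adjusted p = 0.000122 by edgeR). Pccb, a subunit of propionyl-CoA carboxylase, was the third (log2 fold change -0.33, edgeR adjusted p = 0.0422, from 0.00359 to 0.127 over the alternatives), a call lost with the replicate number as a block, without the filter on low counts, and without any 1 refed library or fasted replicate 1. The mutase itself, Mmut (listed as Mut), did not pass, at a log2 fold change of 0.06.

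In the lysine arm 4 of 9 genes rose, 4 fell and 1 did not pass. Of all genes tested 29.2% were called higher and 30.2% lower, also near an even split. Dhtkd1, the decarboxylase subunit of the oxoadipate dehydrogenase further along the saccharopine route, had 25.1, 31.997 and 43.6 CPM in refed and 94.8, 88.3 and 105 CPM in fasted replicates. It rose 2.86-fold without overlap (log2 fold change 1.52 ± 0.20 SE, adjusted p = 0.000367 by edgeR), and its antisense neighbour Gm13267 had at most 21 reads. Dlst, the transacylase that works with it and with oxoglutarate dehydrogenase, rose too (log2 fold change 0.76, edgeR adjusted p = 0.00155), as did the aminoadipate aminotransferase Aadat (log2 fold change 0.46, edgeR adjusted p = 0.0304, from 0.000548 to 0.165 over the alternatives). The call of Aadat was lost with library totals, with the replicate number as a block and without any 1 library other than fasted replicate 3. Aldh7a1, the dehydrogenase that follows Aass directly, fell (log2 fold change -0.50, edgeR adjusted p = 0.0191, from 0.00273 to 0.063 over the alternatives), and overlaps Phax, which had up to 1232 reads. Its call was lost without refed replicate 2, refed replicate 3 or fasted replicate 1. Gcdh, the glutaryl-CoA dehydrogenase, had a log2 fold change of -0.08 and did not pass.

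Pipox, a peroxisomal oxidase of pipecolate, the intermediate of the other lysine route, had 244, 267 and 247 CPM in refed and 92.8, 115 and 119.6 CPM in fasted replicates. Each fasted library was below each refed one, and it fell 2.31-fold (log2 fold change -1.21 ± 0.14 SE, adjusted p = 0.00017 by edgeR). Crym, a ketimine reductase of that route, fell from a low level of 1.42 ± 0.365 CPM to 0.406 ± 0.105 CPM (mean ± SD, n = 3) at a log2 fold change of -1.79, edgeR adjusted p = 0.00191. Slc25a21, the mitochondrial carrier of oxoadipate, also fell (log2 fold change -0.52, edgeR adjusted p = 0.0126).

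**Figure D3:**
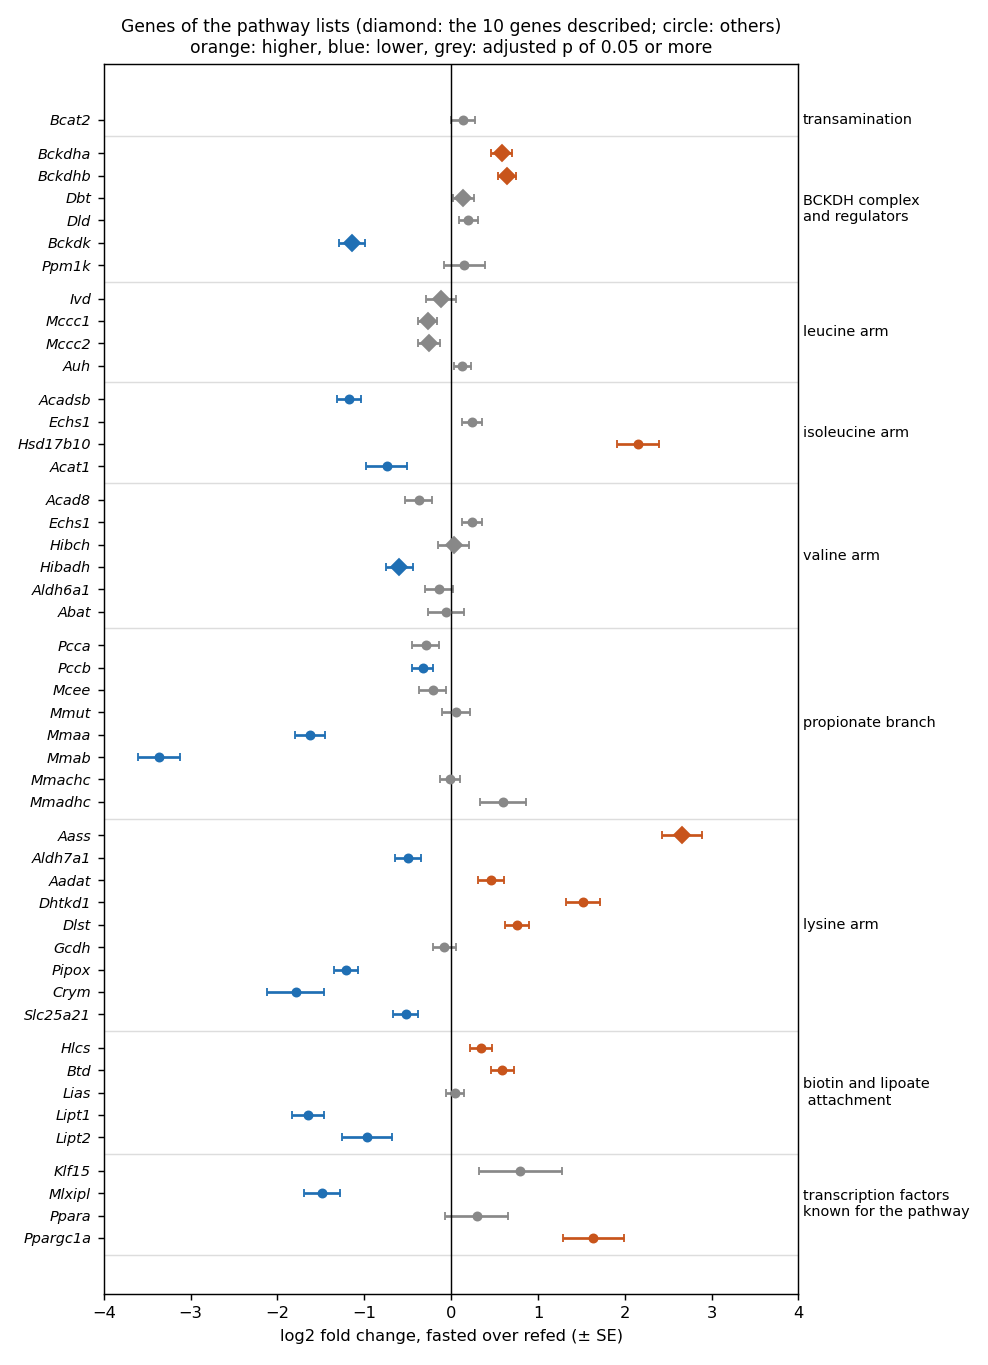
Log2 fold change (fasted over refed, bars ± SE) of the genes of each list in 6 libraries, with diamonds for the 10 genes described and circles for the others, orange where higher, blue where lower and grey where the adjusted p was 0.05 or more. Aass at 2.66 and Mmab at -3.36 mark the ends of the range, the leucine list holds no coloured point, and Echs1 appears under isoleucine and valine.

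Of 5 genes that handle the cofactors of these enzymes, 2 rose (Btd and Hlcs), 2 fell (Lipt1 and Lipt2) and 1 did not pass (Lias). All genes tested were also split nearly evenly, with 29.2% called higher and 30.2% lower. Lipt1, which moves lipoate onto the ketoacid dehydrogenases, fell 3.13-fold, from 7.44, 7.26 and 5.96 CPM in refed to 2.43, 2.36 and 1.80 CPM in fasted replicates (log2 fold change -1.65 ± 0.19 SE, adjusted p = 0.000181 by edgeR). Btd, the biotinidase that recycles biotin, rose 1.51-fold (log2 fold change 0.59 ± 0.14 SE, adjusted p = 0.00602 by edgeR), from 60.1 ± 8.13 to 90.5 ± 8.996 CPM (SD, n = 3). Its span overlaps Hacl1, which had up to 25005 reads in a library, and Lipt1 overlaps Mitd1, at up to 284 reads, so their counts are uncertain where strand handling is not known. The call of Hlcs, the ligase that attaches biotin, had an adjusted p of 0.0444 in edgeR, from 0.00937 to 0.387 over the alternatives. That of Lipt2 had an adjusted p of 0.0188 in edgeR, from 0.00658 to 0.0595 over the alternatives. The call of Hlcs was lost under most alternatives, the replicate block and DESeq2 included, and held without fasted replicate 3, while that of Lipt2 was lost without refed replicate 1 or 2.

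Among 4 transcription factors known for links to this pathway, 1 rose, 1 fell and 2 did not pass. The shares over all genes tested were 29.2% called higher and 30.2% lower. Mlxipl, the carbohydrate response factor ChREBP, known in rats to raise Bckdk and lower Ppm1k in liver, had 176, 149.8 and 168 CPM in refed and 62.5, 41.1 and 72.6 CPM in fasted replicates. It fell 2.81-fold without overlap (log2 fold change -1.49 ± 0.20 SE, adjusted p = 0.000449 by edgeR). Ppargc1a, the coactivator PGC-1alpha, rose 3.11-fold, from 5.43 ± 2.97 to 16.9 ± 2.81 CPM (mean ± SD, n = 3) at a log2 fold change of 1.64 ± 0.35 SE, adjusted p = 0.00518 by edgeR. Klf15, known in mice to drive amino acid breakdown genes, had 144, 120.1 and 149 CPM in refed and 135, 126 and 456 CPM in fasted replicates. Its fasted replicate 3 alone stood high, and it did not pass (log2 fold change 0.80 ± 0.48 SE, adjusted p = 0.188 by edgeR), with a log2 fold change of -0.07 without that library.

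Levels can be ranked among the 10 genes only per length, and the order depends on which length is used. The authors' deposited signal per kb rests on lengths of 0.604 to 3.30 kb, which for Aass (0.645 kb), Ivd (0.782 kb) and Bckdk (0.88 kb) are 5.74, 4.68 and 3.87 times shorter than the longest coding transcript in GENCODE M21. By the deposited signal per kb, Aass was the highest of the 10 genes in refed livers and Ivd the second. By CPM per kb of the longest transcript, Hibadh was the highest in refed livers at 156 ± 4.10, followed by Bckdha at 99.3 ± 3.98, Aass at 93.5 ± 1.28 and Ivd at 57.0 ± 4.65 (SD, n = 3). Below them came Hibch at 45.04 ± 0.337, Dbt at 39.3 ± 2.94, Bckdhb at 37.8 ± 2.06, Mccc2 at 26.0 ± 1.89 and Mccc1 at 23.4 ± 1.34 CPM per kb (SD, n = 3). The libraries of Dbt and Bckdhb, and those of Mccc2 and Mccc1, overlapped as neighbours in that order. In fasted livers Aass was first by either length, at 589 ± 162 CPM per kb of the longest transcript (SD, n = 3). Bckdk was the lowest by either length in both groups, at 3.78 ± 0.224 CPM per kb in refed and 1.71 ± 0.269 CPM per kb in fasted livers (SD, n = 3).

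The genes most like Aass over the 6 libraries, by the root mean square distance of centred log2 CPM among 8695 genes of at least 5 CPM, were Pros1, which encodes anticoagulant protein S, at a distance of 0.0787, then Arl4a at 0.102 and Tmem62 at 0.11. Pros1 had 51.9 to 60.9 CPM in refed livers, 392 and 384 CPM in fasted replicates 1 and 2 and 246 CPM in replicate 3. It was picked for its nearness to Aass over these same libraries, so its likeness to Aass is no separate finding. Nearest to Bckdk were Acn9 at 0.0638, 3110002H16Rik at 0.0656 and Fam116a at 0.0659. Such distances over 6 libraries describe likeness only.

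Fasted replicate 3 lay below the mean of fasted replicates 1 and 2 in 5 of the 10 members and above it in 5, near the 49.7% below among all tested genes. Of the other list genes it lay below that mean in 24 of 36 (66.7%), with a median log2 difference of -0.12. The log2 differences of the members ran from -0.74 in Aass to 0.51 in Ivd, and those of the other list genes from -1.03 to 1.80. Without that library 3 members were called higher and 3 lower, Ivd being the one added, against 31.6% and 32.7% of the genes then tested. The signs of Hibch and Dbt changed with the scaling of libraries. Scaled by library totals, all tested genes had a median change of -0.21 on the log2 scale, and the members' values moved down with it.

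**Figure D4:**
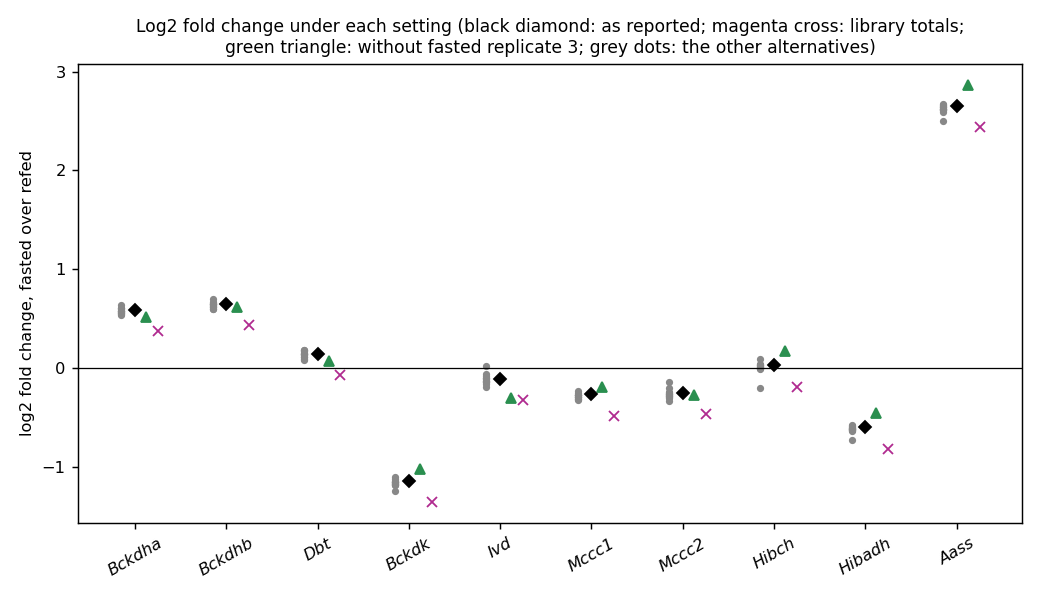
Log2 fold change (fasted over refed) of the 10 genes as reported (black diamond), with library totals (magenta cross), without fasted replicate 3 (green triangle) and under the other alternatives (grey dots). Aass stays between 2.44 and 2.87 and Bckdk between -1.36 and -1.02, while the points of Dbt, Ivd and Hibch fall on both sides of 0.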

How the data were processed

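Counts of 6 mouse liver RNA-seq libraries, 3 refed and 3 fasted, were used. The gene table deposited by the authors holds raw counts, a normalized signal and that signal per kb of gene length. The deposited table also holds the authors' log2 fold change, p-value and adjusted p-value. Within each library the count over the normalized signal was constant. Upstream tools, listed with no role in the submitters' processing notes, were HTSeq 0.5.4p3, DESeq2 1.0.19, Bowtie2 2.1.0 and TopHat2 2.0.10, with mm9 as build. Not given in the sources used here are strand handling, annotation and how gene length was defined.

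Counts were fitted with edgeR 4.0.16 in R 4.3.3 (limma 3.58.1 and DESeq2 1.42.0 for alternatives), using filterByExpr with a minimum count of 10 (13248 of 23631 genes kept), TMM factors and robust quasi-likelihood with no term besides group. Adjustment was by Benjamini-Hochberg over all genes tested, and an adjusted p under 0.05 was called. Fold changes are fasted over refed, and the SE is the size of the log2 fold change over the square root of F. Ratios were taken per library with 0.5 counts added and tested by exact two-sided permutation. The fit was tested on simulated data. No pair of libraries differed by as little as sampling noise. Nothing says that samples came from separate animals, so a p-value reflects only how these samples spread, possibly for technical reasons. Limits given for 0 reads cover counting error only, with 3 counts as the floor.

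The members and lists were chosen with earlier results of these data known. Beside the members, the rule named up to 2 called non-members per list, by lowest p, any called non-member that went against the majority of its list, and the 3 genes nearest in pattern to the highest and the lowest called member. Any other list gene was named with its values already seen. Promoter windows came from RefSeq for 9 of 10 members; Dbt had no entry. Alternatives were other scaling factors and filters, DESeq2, limma-voom, a block for the replicate number, and leaving out each library. The GENCODE M21 length was added after the data were seen. A gene of the leucine list is not reported here and was left out of the list's counts.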

Additional observations from a re-analysis of the deposited data

How the results depend on the processing

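The calls of Aass, Bckdha, Bckdhb, Bckdk and Hibadh kept their direction and passed under every alternative run. With library totals 4 members were lower, as Mccc1 (-0.48) and Mccc2 (-0.47) passed and Dbt (-0.072) and Hibch (-0.19) turned negative. All tested genes shifted too: 5074 of 13248 were then called lower and 2873 higher, against 3999 and 3867 with TMM factors. Mccc1 also passed with upper-quartile factors (-0.31) and with genes under 5 CPM removed (-0.30). Hibch turned negative with upper-quartile factors (-0.014), with genes under 5 CPM removed (-0.0037) and with limma-voom (-0.0035). With 1 library left out, Hibch ran from -0.20 to 0.18, Ivd from -0.30 to 0.020, the log2 difference of Bckdha to Bckdhb from -0.10 to 0.00013 and that of Mccc1 to Mccc2 from -0.13 to 0.091; members called lower ran from 2 to 3 and other list genes called from 5 to 8 higher and from 8 to 13 lower. The cause of these shifts was not tested.

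Same-numbered refed and fasted libraries did not deviate together (correlations over genes of -0.02, -0.06 and -0.08), so the numbers are not taken to pair samples, and 0 of 3 refed libraries correlated best with the fasted library of the same number. With the replicate number as a block, 3 members were higher and 2 lower as before, Hibch stood at -0.0040, and other list genes called went from 7 to 5 higher and from 12 to 11 lower. With the length of the longest GENCODE transcript, the ranking of members by level per kb changed for most genes. Crym, Lipt2, Lipt1 and, in fasted libraries, Mmab and Bckdk had few reads, which limits what their values can show.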

Other observations

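Mmab, the list gene with the deepest fall, stands next to Mvk, a mevalonate kinase gene of cholesterol synthesis, with a gap of 210 bases between their spans on chromosome 5 in the deposited table (mm9). Mvk was picked after its values were seen. It had 17.8, 19.4 and 22.3 CPM in refed replicates 1, 2 and 3 and 3.18, 2.92 and 4.08 CPM in fasted ones, and fell as well (log2 fold change -2.55, SE 0.17, edgeR adjusted p = 1.66e-05). On the other side of Mmab, Ube3b, 9866 bases away, rose slightly (log2 fold change 0.30, SE 0.11, edgeR adjusted p = 0.0369). Neighbours of Hsd17b10 and Mmaa were looked up as well. Ribc1, 140 bases from Hsd17b10, rose from a low level (log2 fold change 0.97, edgeR adjusted p = 0.0357). Smc1a, 11986 bases from Hsd17b10, fell (log2 fold change -0.66, edgeR adjusted p = 0.00153). Gm4890, 167 bases from Mmaa, did not pass (log2 fold change 0.40, edgeR adjusted p = 0.414), and 1700011L22Rik, on the other side of Mmaa, had 0 reads.

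Mmadhc, which directs cobalamin to its mitochondrial and cytosolic uses, had 72.0, 65.1 and 64.5 CPM in refed replicates and 127, 118 and 60.0 CPM in fasted ones. Fasted replicates 1 and 2 lay above all refed libraries and fasted replicate 3 below them, and it did not pass (log2 fold change 0.60, SE 0.26, edgeR adjusted p = 0.0811). Without fasted replicate 3 its log2 fold change was 0.87 (edgeR adjusted p = 6.13e-05).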
